A study of Mus musculus with 6 samples.

Results

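The nuclear genes of respiratory complexes II to V were examined in 4T1, a mammary carcinoma line of the mouse. The members were the protein-coding genes with symbols beginning Sdha to Sdhd, Uqcr, Cox4 to Cox8 or Atp5 in GENCODE M21. They came to 48 identifiers with 47 symbols, of 56748 identifiers measured: 4 of complex II, 8 of complex III, 18 of complex IV and 18 of complex V. The treated group held 3 samples: after 24 h in culture the cells received Au/MoS2/Bi2S3 particles at 125 µg/mL overnight and near-infrared (NIR) light for 8 min, and stayed in culture for 24 h more. The control group held 3 samples of the same line. All 6 were labelled wild type and collected at 48 h. The submitters describe pooled RNA of 3 individuals, and whether a group's samples were separate cultures is not stated. The combined treatment was set against the control, and cells given particles alone or light alone were not analysed here.

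Oxidative phosphorylation couples the oxidation of fuel to ATP synthesis in the inner mitochondrial membrane. Complex II (succinate dehydrogenase) feeds electrons from succinate into the chain, complex III passes them from ubiquinol to cytochrome c, complex IV passes them to oxygen, and complex V (ATP synthase) uses the proton gradient to make ATP. Complex II is built from nuclear genes alone, whereas the other complexes combine nuclear subunits with a few subunits encoded in mitochondrial DNA. In background knowledge on mammalian cells, the transcription factors NRF1, GABP and YY1 bind promoters of many of these nuclear genes.

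The promoters of 5 members are shown because these members span the range of the results below: Atp5e, Uqcrh and Cox6a1 were among those with the largest fitted falls, whereas Uqcr11 and Cox7a2 were not called. Each is the 250 bases before the start site on the minus strand of GRCm38.p6, from RefSeq, written 5′ to 3′. Capitals mark the NRF1 letters (GCGCA, any base N, then GCGC) or the GABP letters (CCGGAAG), searched on both strands with overlaps between motifs allowed. CTTCCGG is the reverse complement of the GABP letters.
Atp5e, chr2:174464102-174464351: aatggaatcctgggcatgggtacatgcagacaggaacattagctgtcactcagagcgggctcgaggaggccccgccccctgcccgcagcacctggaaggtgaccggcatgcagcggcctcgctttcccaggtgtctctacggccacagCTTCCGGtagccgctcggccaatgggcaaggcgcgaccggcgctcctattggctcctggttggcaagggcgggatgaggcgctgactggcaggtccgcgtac
Uqcrh, chr4:116075071-116075320: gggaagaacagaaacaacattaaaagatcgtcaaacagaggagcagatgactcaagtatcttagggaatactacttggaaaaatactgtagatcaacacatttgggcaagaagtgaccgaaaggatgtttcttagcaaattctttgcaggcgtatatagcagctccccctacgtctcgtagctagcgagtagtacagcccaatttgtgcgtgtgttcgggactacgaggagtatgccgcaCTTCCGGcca
Cox6a1, chr5:115348959-115349208: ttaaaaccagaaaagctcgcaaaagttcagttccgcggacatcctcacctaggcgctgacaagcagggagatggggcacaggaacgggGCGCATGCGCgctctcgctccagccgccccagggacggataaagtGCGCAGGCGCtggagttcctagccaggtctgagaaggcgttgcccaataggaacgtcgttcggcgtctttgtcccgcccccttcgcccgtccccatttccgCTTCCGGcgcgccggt
Uqcr11, chr10:80406822-80407071: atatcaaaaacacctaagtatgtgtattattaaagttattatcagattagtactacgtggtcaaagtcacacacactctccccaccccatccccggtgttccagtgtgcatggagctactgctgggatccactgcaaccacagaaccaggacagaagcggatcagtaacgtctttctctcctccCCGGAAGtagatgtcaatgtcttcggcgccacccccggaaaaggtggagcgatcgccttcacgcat
Cox7a2, chr9:79759854-79760103: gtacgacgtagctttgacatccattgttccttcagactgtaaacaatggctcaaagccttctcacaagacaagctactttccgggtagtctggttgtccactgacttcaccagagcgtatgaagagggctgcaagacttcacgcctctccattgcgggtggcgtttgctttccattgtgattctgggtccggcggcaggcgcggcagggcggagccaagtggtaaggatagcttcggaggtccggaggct

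The GABP letters began 102 bases before the start in Atp5e, 10 in Uqcrh, 16 in Cox6a1 and 66 in Uqcr11. The NRF1 letters began 162 and 117 bases before the start in Cox6a1, and Cox7a2 held no match. A promoter was matched for 34 of the 47 member symbols, over 250 bases before to 50 after the start. The NRF1 letters were in 9 of the 34 (26.5%), against 4.78% of all 27025 promoters and 11.6% of the 7983 promoters of tested genes. The GABP letters were in 11 (32.4%), against 9.12% of all promoters and 20.4% of those of tested genes. The YY1 letters (AAGATGG followed directly by CGGC) were in 0 of the 34, against 0.699% of all promoters and 1.98% of those of tested genes. At shares this low, 0 of 34 says little about the members. The promoters printed above are not typical in their matches. Among members called lower, 12 of 20 promoters held the letters of at least 1 factor, against 4 of 11 among members not called. The letters of at least 1 factor were in 30.9% of the promoters of tested genes and in 13.5% of all promoters. Cox7a2l, not printed, held no match, and its log2 fold change of -2.31 was lower than the -2.06 of Cox6a1. Whether a match goes with a fall was not tested. A match describes letters in this window only.

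In treated cells 29 of the 41 members that could be tested were lower than in control cells, and 0 were higher (limma, adjusted p under 0.05). The lower share was 70.7%, against a background of 28.3% of all 11118 genes tested that were lower and 27.9% that were higher, 56.1% in all. The median log2 fold change was -0.97 over the tested members and -0.015 over all genes tested. In 30 of the 41 (73.2%) every treated library lay below every control library, against 34.1% of all genes tested, and in 0 members did every treated library lie above, against 33.6%. At an unadjusted p under 0.05 the limma test also gave 29 lower and 0 higher.

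The members are abundant transcripts, and abundant transcripts were more often lower in these data. Of the 2457 tested genes with a mean of 20 FPKM or more, 57.8% were lower and 5.58% higher, with a median log2 fold change of -0.68. Among the 35 members above that level, 25 were lower (71.4%), with a median of -0.97. The member share is therefore nearer to that of genes above this level than to that of all genes. The cut has no upper bound, so these genes are not matched to the members in abundance. FPKM is a read count divided by exon length and library size, and the deposited values had also been scaled so that the typical gene was level between libraries. A change is read relative to that typical gene. With scaling by library size only, 16 of the 41 members were lower and 2 higher, against 9.72% lower and 55.3% higher of 11477 genes, whose median log2 fold change was 0.61. As a share of all reads at genes, which does not use that scaling, the members took 0.693%, 0.728% and 0.678% in treated 1 to 3, against 1.14%, 1.00% and 1.43% in control 1 to 3.

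Each library held 33.2 to 33.8 M reads at genes (M, 1e6) in the treated group and 32.6 to 38.1 M in the control group, worked back from the low FPKM values. Each tested member had at least 292 reads in every library, except Atp5s, with 258 to 295 reads, and Cox7a1, with 0 to 124 reads. The control libraries differed more among themselves than the treated ones: the median SD of a member on the log2(FPKM + 1) scale was 0.102 over treated and 0.553 over control libraries, against 0.0712 and 0.268 over all genes tested. Of 6 epithelial markers, Krt8 had 345 to 359 FPKM in treated and 468 to 493 FPKM in control libraries, Cdh1 and Krt7 were under 0.1 FPKM, and the 4 that could be tested were all lower in treated cells. The 6 fibroblast markers summed to 51.4 to 54.4 FPKM in treated and 203.8 to 1166 FPKM in control libraries, nearly all from Col1a1 and Col3a1, with Dcn, Lum and Col1a2 under 0.1 FPKM. The 6 leukocyte markers summed to 241.8 to 259.9 FPKM in treated and 77.0 to 444.2 FPKM in control libraries, nearly all Cd68, with Adgre1 at 0 in every library and Ptprc at 0 in every control library. The 4 endothelial markers summed to 1.18 to 1.75 FPKM in treated and 0.744 to 1.16 FPKM in control libraries. The part of these shifts in the members' differences was not tested, and in bulk RNA fewer cells of a kind and less RNA per cell cannot be told apart.

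**Figure D1:**
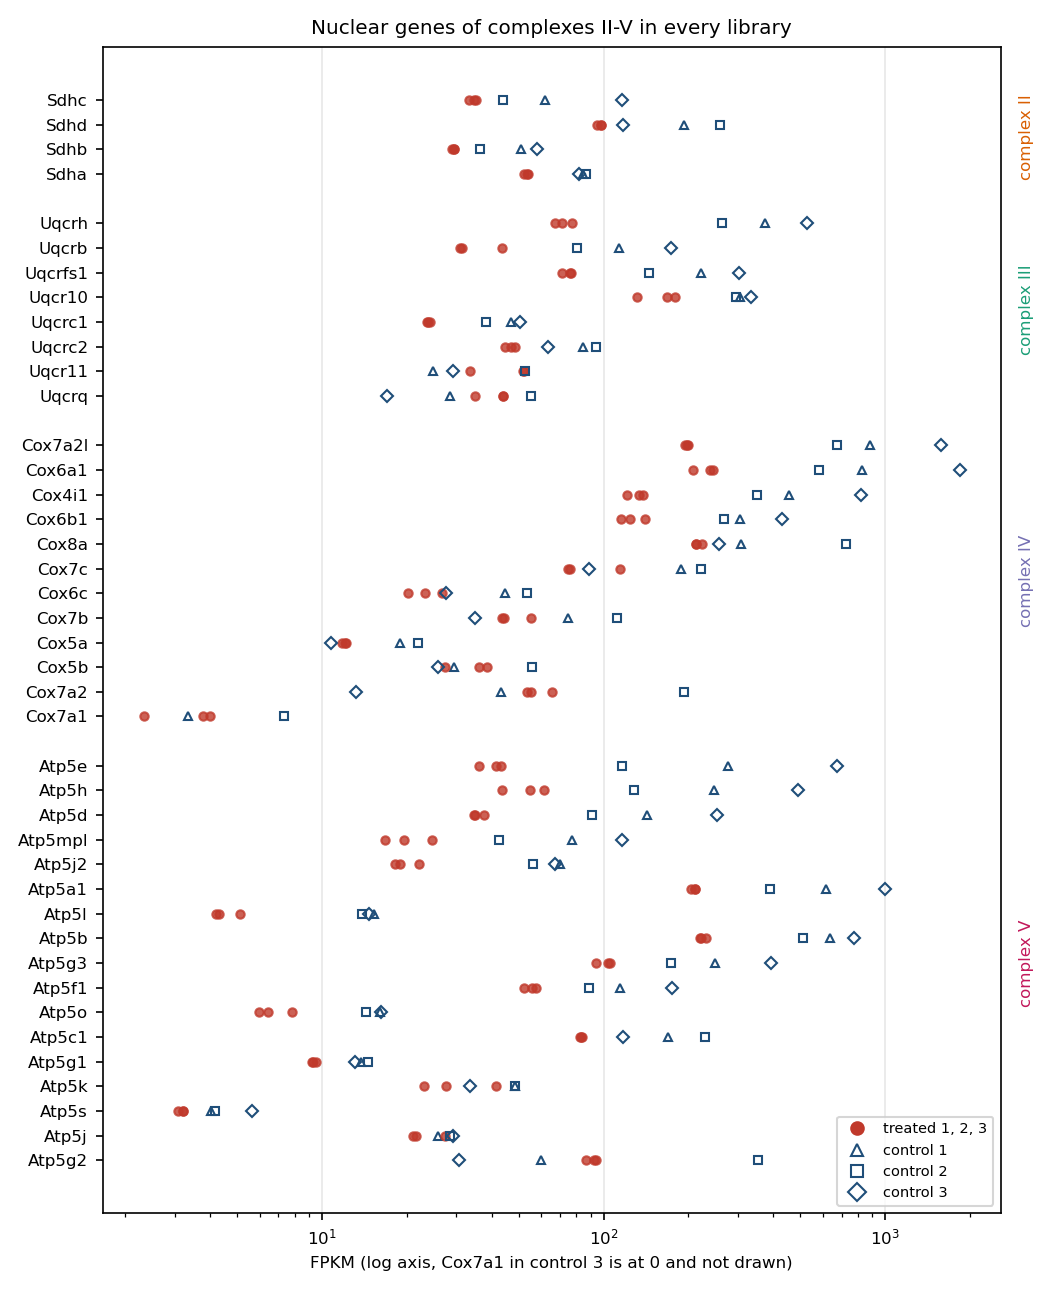
FPKM (log axis) of the 41 tested members in each library, grouped by complex, with filled circles for the 3 treated libraries and open triangles, squares and diamonds for control 1, 2 and 3. Treated libraries lie close together and left of every control library for 30 members, whereas the order of control 2 and control 3 differs from gene to gene; Cox7a1 in control 3 is at 0 and not drawn.

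Complex II was the most even of the 4. All 4 subunits were lower (limma, adjusted p under 0.05), with log2 fold changes from -0.97 to -0.65 and a median of -0.78, although the median was 0.009 under quantile normalization. Sdha, the flavoprotein that oxidises succinate, had 53.6, 52.3 and 53.8 FPKM in treated 1 to 3, against 84.7, 86.7 and 81.8 FPKM in control 1 to 3. The groups were separate and the spread within each was small. The log2 fold change of Sdha was -0.65 ± 0.10 (SE), with an adjusted p of 0.00262 by limma, and it was 0.18 under quantile normalization and 0.08 with scaling by library size only.

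Sdhd, a membrane anchor and the most abundant of the 4, had 97.9, 98.0 and 95.1 FPKM in treated 1 to 3, against 193.6, 258.2 and 116.9 FPKM in control 1 to 3. Control 3 was the lowest control but lay above every treated library. The log2 fold change of Sdhd was -0.89 ± 0.29 (SE), with an adjusted p of 0.0383 by limma, and it was 0.09 under quantile normalization. Sdhc, the other membrane anchor, had 34.6, 33.2 and 35.1 FPKM in treated 1 to 3, against 61.7, 44.0 and 116.7 FPKM in control 1 to 3, and the largest p of the complex (log2 fold change -0.97 ± 0.34; limma, adjusted p = 0.0496). Here control 3 was the highest library, the opposite of Sdhd. Sdhb, the iron-sulfur subunit, had 29.0, 29.4 and 29.4 FPKM in treated 1 to 3, against 50.7, 36.5 and 58.1 FPKM in control 1 to 3, again without overlap (log2 fold change -0.68 ± 0.18; limma, adjusted p = 0.0201; 0.05 with scaling by library size only). The lower calls of the complex fell to 1 of 4 when control 1 or any treated library was left out, and to 2 of 4 with no filter on low values. They fell to 0 of 4 with scaling by library size only, quantile normalization or removal of a trend for level, exon length and GC content.

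In complex III, 6 of 8 subunits were lower and 0 higher, with a median log2 fold change of -0.93. The 3 core and iron-sulfur subunits Uqcrc1, Uqcrc2 and Uqcrfs1 were all lower, with log2 fold changes from -1.51 to -0.76, although Uqcrc2 was at 0.04 under quantile normalization, and of the 5 small subunits 3 were lower. Uqcrh, the acidic hinge protein near cytochrome c1, had 70.9, 77.0 and 67.0 FPKM in treated 1 to 3, against 373.6, 263.1 and 526.7 FPKM in control 1 to 3. Its lowest control library lay far above the highest treated one. Its fold change on the log2 scale was -2.37 ± 0.26 (SE), with an adjusted p of 0.000818 by limma, and the gene was called lower in 14 of 14 alternative settings. Uqcr10, a small subunit, had 168.5, 179.0 and 130.9 FPKM in treated 1 to 3, against 304.4, 296.0 and 332.8 FPKM in control 1 to 3. Uqcr10 had a log2 fold change of -0.97 ± 0.16 (SE), with an adjusted p of 0.00355 by limma, but 0.13 under quantile normalization and 0.53 once a trend for level, exon length and GC content was removed.

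The other 2 small subunits did not follow. Uqcrq, the ubiquinone-binding protein, had 44.0, 44.0 and 34.8 FPKM in treated 1 to 3, against 28.5, 55.4 and 17.1 FPKM in control 1 to 3. Uqcr11 had 52.2, 51.7 and 33.6 FPKM in treated 1 to 3, against 24.8, 52.7 and 29.2 FPKM in control 1 to 3. In both genes the treated libraries lay inside the range of the controls, and control 2 was the highest control. Their log2 fold changes were 0.42 ± 0.40 and 0.40 ± 0.32 (SE; limma, adjusted p = 0.401 and 0.318). Uqcr11 was called higher with scaling by library size only (log2 fold change 1.13, limma, adjusted p = 0.025), under quantile normalization, with the trend removed and without control 2. Lower calls of complex III were 3 of 8 with scaling by library size only, 3 under quantile normalization and 2 with the trend removed.

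Complex IV was the most divided. Of its 18 members 12 could be tested, and 5 of these were lower and 0 higher, with a median log2 fold change of -0.80, although the median was 0.067 with that trend removed. The 3 Cox6 subunits, Cox6a1, Cox6b1 and Cox6c, were all lower, although Cox6b1 was at 0.01 with the trend removed. In the Cox4 and Cox5 families 1 of 3 was lower, in the Cox7 families 1 of 5 and in the Cox8 family 0 of 1. The Cox7 call was Cox7a2l, whereas Cox7a1, Cox7a2, Cox7b and Cox7c were not called. The lower calls were 9 of 12 without control 3, 2 of 12 under quantile normalization and 0 of 12 with the trend removed.

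Cox7a2l, known in mouse for joining complexes III and IV in supercomplexes and matched here by its symbol, had 193.9, 198.2 and 198.8 FPKM in treated 1 to 3, against 879.8, 673.3 and 1576 FPKM in control 1 to 3. The treated values were within 1.03-fold of each other, far below every control. Cox7a2l had a log2 fold change of -2.31 ± 0.32 (SE), with an adjusted p of 0.00171 by limma. Cox6a1, the ubiquitous form of subunit VIa, had 238.3, 245.4 and 207.9 FPKM in treated 1 to 3, against 828.7, 583.4 and 1842 FPKM in control 1 to 3 (log2 fold change -2.06 ± 0.42; limma, adjusted p = 0.00711). Cox4i1, the ubiquitous form of subunit IV, averaged 130.9 ± 9.2 FPKM in treated and 541.9 ± 248.2 FPKM in control cells (SD, n = 3 each). All 3 genes had their highest value in control 3, and none of the 3 was called with the trend removed, where Cox6a1 was at -0.06, Cox7a2l at -1.04 and Cox4i1 at -0.61 (limma, adjusted p = 0.901, 0.0567 and 0.126). Cox6a1 was not called under quantile normalization either (log2 fold change -0.82; limma, adjusted p = 0.095).

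Cox5b, which binds zinc, had the largest p in the complex, with 36.2, 38.6 and 27.3 FPKM in treated 1 to 3, against 29.4, 55.8 and 25.8 FPKM in control 1 to 3 (log2 fold change -0.05 ± 0.31; limma, adjusted p = 0.903). The groups overlapped. Cox8a, the ubiquitous form of subunit VIII, had 213.4, 224.2 and 212.0 FPKM in treated 1 to 3, against 306.5, 728.6 and 257.7 FPKM in control 1 to 3. Every treated library was below every control library, but the spread of the controls left it uncalled (log2 fold change -0.83 ± 0.39; limma, adjusted p = 0.113), and without control 2 it was called at -0.38 (limma, adjusted p = 0.0471); with the trend removed it stood at 0.87, not called. Cox7c, Cox7b and Cox5a were not called either, and each was called lower without control 3.

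Complex V had the largest fall. Of its 17 tested members 14 were lower and 0 higher (limma), with a median log2 fold change of -1.34. In complex V 11 had a log2 fold change of -1 or lower, against 0 of 4 in complex II, 3 of 8 in complex III and 4 of 12 in complex IV. The share at -1 or lower over all genes tested was not computed. The F1 head and central stalk, where ATP is made, had all 5 subunits lower (median -1.57), but Atp5a1, Atp5b and Atp5c1 were not called under quantile normalization (log2 fold changes -0.46, -0.41 and -0.013) or with the trend removed (-0.56, -0.51 and -0.10). The peripheral stalk, which holds the head still, had 3 of 4 lower (median -1.11), the small membrane subunits 3 of 4 (median -1.58), and the c-ring, which turns with the proton flow, 2 of 3 (median -0.52), of which Atp5g1 was at 0.17 with scaling by library size only. The remaining lower call was Atp5s, coupling factor B (-0.42), which was also at 0.17 with that scaling. Lower calls of complex V were 9 of 17 with scaling by library size only, 9 under quantile normalization and 7 with the trend removed.

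Atp5a1 and Atp5b, the alpha and beta subunits of the head, were the most abundant members of the complex. Atp5b had 220.5, 230.6 and 220.8 FPKM in treated 1 to 3, against 636.9, 509.8 and 774.8 FPKM in control 1 to 3 (log2 fold change -1.49 ± 0.19; limma, adjusted p = 0.00123). Atp5a1 had 204.2, 211.8 and 211.2 FPKM in treated 1 to 3, against 616.7, 389.6 and 999.0 FPKM in control 1 to 3 (log2 fold change -1.57 ± 0.34; limma, adjusted p = 0.00891). In both genes control 2 was the lowest control and lay above every treated library. Atp5e, the epsilon subunit of the central stalk, had 41.3, 43.2 and 36.0 FPKM in treated 1 to 3, against 276.3, 115.9 and 676.6 FPKM in control 1 to 3. Its mean was 8.87-fold lower in treated cells, the widest gap of the tested members, and its controls were also the furthest apart among the members called lower. The log2 fold change of Atp5e was -2.77 ± 0.60 (SE), with an adjusted p of 0.00916 by limma.

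The smallest p of the members belonged to Atp5l, subunit g of the membrane part, with 5.13, 4.20 and 4.31 FPKM in treated 1 to 3, against 15.3, 13.8 and 14.7 FPKM in control 1 to 3, from 1196 to 3081 reads over 6443 annotated exon bases. In this gene the controls were as close together as the treated libraries. The log2 fold change of Atp5l was -1.49 ± 0.11 (SE), with an adjusted p of 0.000311 by limma. Atp5j2 (subunit f) and Atp5o (OSCP, which joins the stalk to the head) were alike in this, with log2 fold changes of -1.66 ± 0.14 and -1.10 ± 0.13 (SE; limma, adjusted p = 0.000394 and 0.000988). Atp5l, Atp5j2, Atp5o, Atp5d, Atp5e and Uqcrh were the 6 members called lower in 14 of 14 alternative settings. Between 12.3% and 18.1% of the exon bases of Atp5o also belong to each of 3 other annotated genes, 2 of them antisense and 1 the second Atp5o identifier. Uqcrc2 shares 19.7% of its exon bases with Pdzd9, Cox5a 12.8% with Gm26631 and Atp5j 12.7% with Gabpa, all on the opposite strand. The authors' strand setting is not given in the sources used here. Processed pseudogenes may share reads with their parent genes: Atp5l2-ps had 0.797 to 2.54 FPKM in treated and 3.79 to 6.27 FPKM in control libraries, and Cox6c2 had 3.47 to 5.09 FPKM in treated and 0.554 to 10.6 FPKM in control libraries, so Atp5l and Cox6c are uncertain to that extent. Atp5k-ps2 had 0.43 to 1.38 FPKM in treated and 0.61 to 1.67 FPKM in control libraries. Only pseudogenes with symbols like those of members were looked up, so other members may share reads as well.

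Atp5k, Atp5j and Atp5g2 were not called, and Atp5j was called higher with scaling by library size only (log2 fold change 0.46; limma, adjusted p = 0.0231). The c-ring protein is identical in its mature form whether made from Atp5g1, Atp5g2 or Atp5g3, and reads from the 3 genes may be split between near-identical stretches. Atp5g2 had 93.8, 92.4 and 86.7 FPKM in treated 1 to 3, against 59.7, 352.5 and 30.7 FPKM in control 1 to 3 (log2 fold change 0.06 ± 0.84; limma, adjusted p = 0.952). Its treated values lay inside the control range, whose top was 11.5-fold above its bottom. Of the summed FPKM of the 3 genes, Atp5g2 made up 47.7%, 44.6% and 43.4% in treated 1 to 3, against 18.5%, 65.1% and 7.05% in control 1 to 3. The sum itself was 196.6, 207.3 and 199.8 FPKM in treated 1 to 3, against 322.1, 541.2 and 436.1 FPKM in control 1 to 3. Here the groups did not overlap on the deposited scaling. Scaled by library size only (factors 1.32 for treated 2 and 0.822 for control 1), treated 2 is not below control 1.

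**Figure D2:**
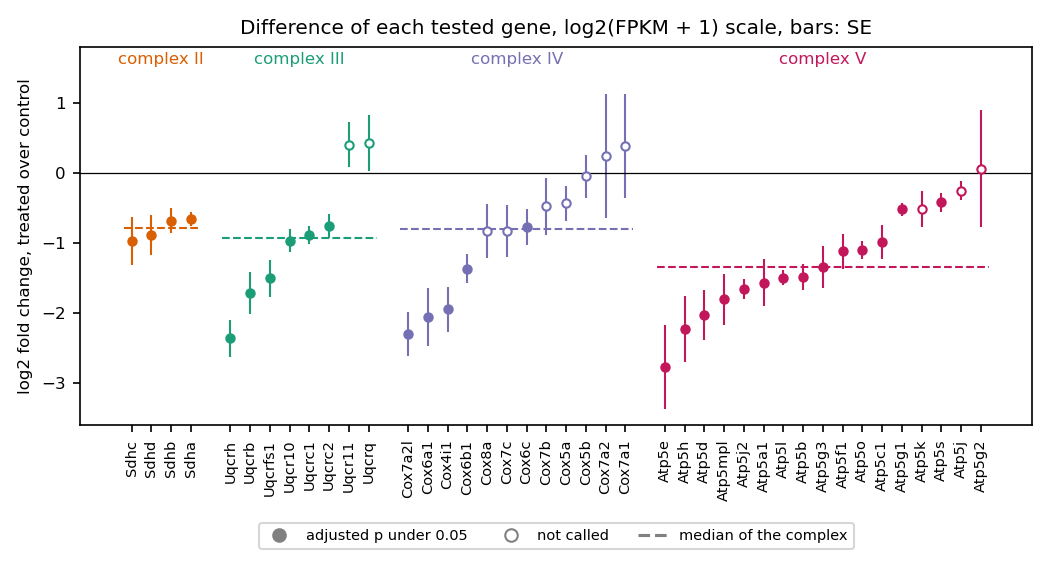
Log2 fold change, treated over control, of the 41 tested members on the log2(FPKM + 1) scale with standard errors (3 libraries a group); filled circles were called by limma, open circles were not, and dashed lines are the medians of the complexes. The medians were -0.78, -0.93, -0.80 and -1.34 for complexes II, III, IV and V, and no called member lies above 0; the median of complex II reverses under quantile normalization and that of complex IV with the trend removed.

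Of the 7 members that did not reach 1 FPKM in 3 libraries, 6 are isoforms that in mammals are largely restricted to muscle and heart, lung or testis: Cox4i2, Cox6a2, Cox6b2, Cox7b2, Cox8b and Cox8c. The other was a second identifier of Atp5o, listed at 0 in every library. Each of these 7 had between 0 and 9 reads in a library. Cox7b2, Cox8b and Cox8c had 0 reads in all 6, and 0 reads allow up to 3, which is at most 0.356 FPKM for Cox8b in control 3. The ubiquitous partner made up at least 99.9% of the summed FPKM of Cox4i, Cox6a and Cox8 genes in every library. Cox7a2 made up 94.5%, 93.2% and 95.8% of the Cox7a pair in treated 1 to 3, against 92.8%, 96.4% and 100% in control 1 to 3, the rest being Cox7a1, the muscle form. Cox7a2 itself had 65.4, 55.2 and 53.4 FPKM in treated 1 to 3, against 43.2, 193.5 and 13.2 FPKM in control 1 to 3 (log2 fold change 0.24 ± 0.88; limma, adjusted p = 0.828). Its controls spanned 14.7-fold, more than those of any other tested member above 0 in all 6 libraries.

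The complexes were compared within each library by the mean log2(FPKM + 1) of their tested members, in which the scaling between libraries nearly cancels. Complex V minus complex II was -0.57, -0.41 and -0.61 in treated 1 to 3, against -0.12, -0.17 and 0.05 in control 1 to 3. The groups did not overlap, and the difference of their means was -0.45. Complex V minus complex III was -0.73, -0.68 and -0.61 in treated 1 to 3, against -0.33, -0.52 and -0.18 in control 1 to 3, again without overlap (difference of means -0.33). Complex V minus complex IV was -0.86, -0.84 and -0.75 in treated 1 to 3, against -0.45, -1.04 and 0.18 in control 1 to 3, and here control 2 lay below every treated library. Differences among complexes II, III and IV overlapped between the groups, with differences of means from -0.12 to 0.05. The median of complex V was the lowest of the 4 in 14 of 14 alternative settings. Sample weights per group and the replicate block cannot move a median in this balanced design. The complex V median stayed at -1.342 in both, so those settings add nothing here. Against control 2 alone complex IV was lower than complex V, with median log2 differences of -1.28 and -1.05.

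**Figure D3:**
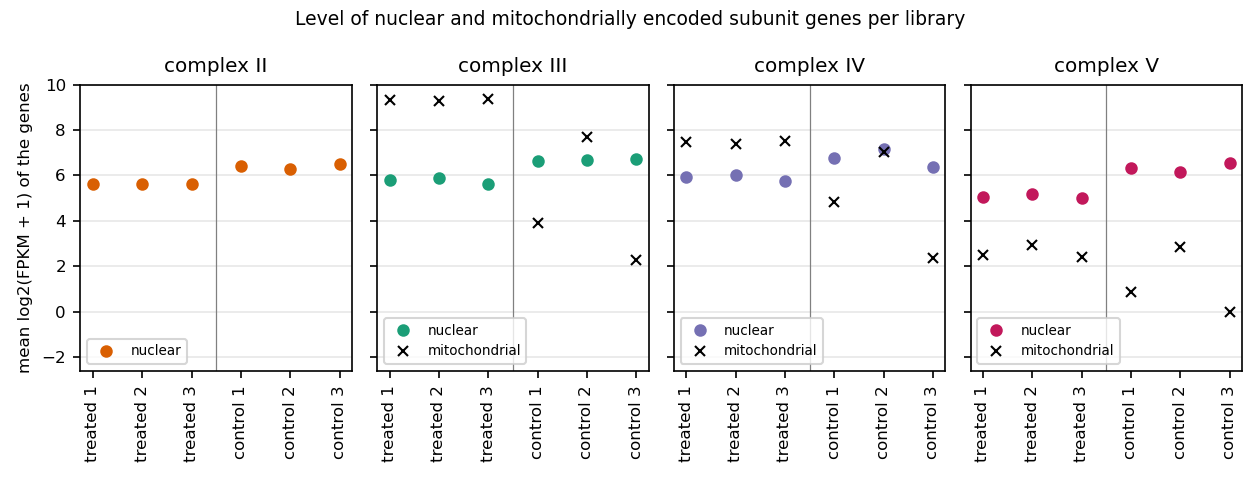
Mean log2(FPKM + 1) of the tested nuclear members of each complex (circles) and of its mitochondrially encoded subunits (crosses) in each treated and control library. On the deposited scaling, nuclear means lie lower in all 3 treated than in all 3 control libraries for each complex (5.08 against 6.33 on average for complex V), whereas mitochondrial means differ widely between the control libraries.

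The mitochondrially encoded partners did not fall with the nuclear members. Of 5 that were tested, 2 were higher (40.0%, against 27.9% of all genes tested) and 0 lower (limma, adjusted p under 0.05; 3 higher and 0 lower at an unadjusted p under 0.05). mt-Cytb, the catalytic core of complex III, had 630.1, 620.1 and 656.1 FPKM in treated 1 to 3, against 13.9, 208.0 and 3.84 FPKM in control 1 to 3 (log2 fold change 4.69 ± 1.29; limma, adjusted p = 0.0224). mt-Co2, of complex IV, was the other. The call was lost in 5 of 14 alternative settings for mt-Cytb and in 6 of 14 for mt-Co2. mt-Co1, the most abundant, had 4303, 4116 and 4552 FPKM in treated 1 to 3, against 658.5, 4714 and 73.9 FPKM in control 1 to 3, and was not called. Libraries were selected for polyadenylated RNA. In each of the 6 mitochondrial genes control 2 was the highest control and control 3 the lowest, the order of Atp5g2 and Cox7a2 and the opposite of Atp5e and Cox6a1.

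Control 1 was the middle control library in most members. In 36 of the 41 tested members control 1 lay between control 2 and control 3 (87.8%), against 65.6% of all genes tested. Control 3 was above control 2 in 24 of the 41 (58.5%), near the share of all genes tested (5563 of 11118). Of these 24 members 13 belong to complex V, 5 to complex III, 4 to complex IV and 2 to complex II. Of these 24, 23 were called lower in treated cells, with a median log2 fold change of -1.50. Control 2 was above control 3 in the other 17, of which 8 belong to complex IV, and 6 of these 17 were called lower, with a median of -0.51. Both quantities use the same control libraries, so no measure of their relation is given. Without such a split, 28.3% of all genes tested were called lower. The shares called lower over all genes split in this way were not computed, so the pattern cannot be called particular to the members.

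Set against control 2 alone, the treated mean was lower in 41 of 41 tested members. Against control 1 it was lower in 36, and against control 3 in 33. The shares of all genes tested against single controls were not computed, and abundant genes were more often lower in these data. By complex, the median log2 difference of the treated mean from control 1, 2 and 3 was -0.80, -0.52 and -0.79 for complex II, -0.94, -0.93 and -1.06 for complex III, -0.78, -1.28 and -0.14 for complex IV, and -1.29, -1.05 and -1.64 for complex V. Complex IV was therefore the lowest of the 4 against control 2 and the highest against control 3, and complex V was the lowest against control 1 and control 3. In the treated group the spread was narrower, and treated 2 was the highest for 28 of 41 members (68.3%, against 31.1% of all genes tested), with a median ratio of treated 2 to treated 3 of 1.09.

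**Figure D4:**
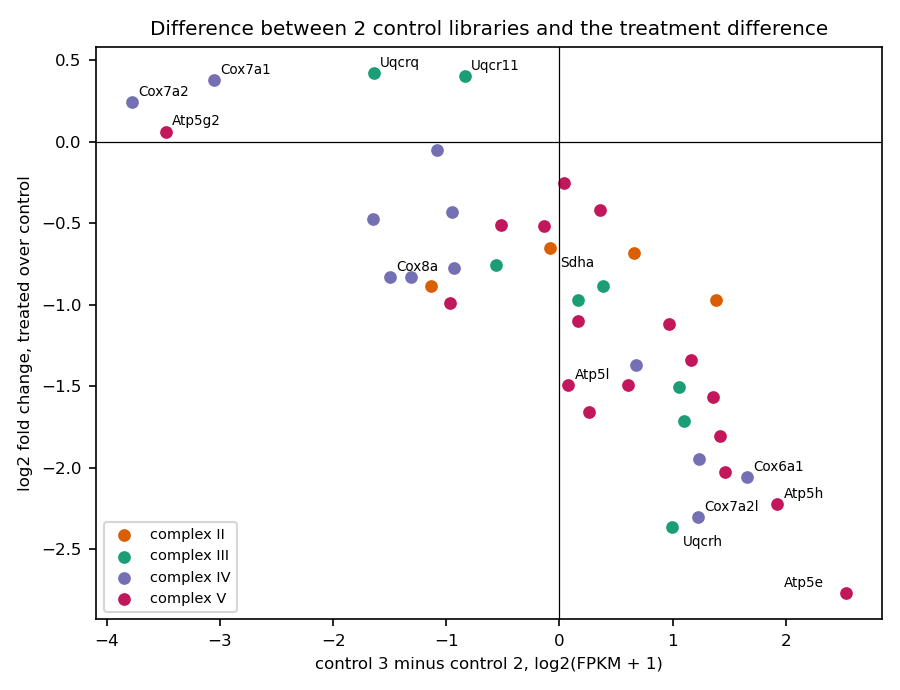
Each point is 1 tested member, with the difference of control 3 from control 2 on the x axis and the log2 fold change, treated over control, on the y axis, both on the log2(FPKM + 1) scale and coloured by complex. The 24 members right of 0 had a median fold change of -1.50 and the 17 left of 0 a median of -0.51; both axes use the same control libraries.

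Subunits and helpers outside the symbol rule were looked at from fixed lists. Cyc1, the cytochrome c1 of complex III, was lower, with 46.9, 48.4 and 43.8 FPKM in treated 1 to 3, against 93.0, 75.4 and 147.3 FPKM in control 1 to 3 (log2 fold change -1.11 ± 0.25; limma, adjusted p = 0.0106). Usmg5, a small subunit of complex V, was lower as well, at -1.19 ± 0.29 (SE; limma, adjusted p = 0.0149), whereas Ndufa4 and Cycs, the electron carrier cytochrome c, were not called. Assembly factors were split: of 31 tested, 9 were lower (29.0%) and 8 higher (25.8%), near the 28.3% and 27.9% of all genes tested, with a median of -0.15, which was 0.52 with scaling by library size only. For complex IV they were 7 lower and 5 higher of 19, among them Cox14 (-1.55 ± 0.15; limma, adjusted p = 0.000586) and Taco1, an activator of mt-Co1 translation, at 1.83 ± 0.12 (SE; limma, adjusted p = 0.000253). For complex II both tested factors, Sdhaf2 and Sdhaf4, were higher, but they were not called in 7 and 8 of 14 alternative settings. For complex III Bcs1l was lower and Ttc19 higher of 5, and for complex V Fmc1 was lower of 5.

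Of 35 tested nuclear subunits of complex I, the entry point for NADH, 22 were lower (62.9%) and 0 higher, with a median of -0.80, which was -0.088 with scaling by library size only and -0.15 with the trend removed. At an unadjusted p under 0.05 limma gave 26 lower and 0 higher. Ndufb10 had the smallest p, at -1.53 ± 0.11 (limma, adjusted p = 0.000305). The 77 tested mitochondrial ribosomal protein genes had 29 lower (37.7%) and 7 higher (9.09%), with a median of -0.29, which was 0.38 with scaling by library size only, led by Mrpl9 among the lower and Mrps2 among the higher. Of 7 supercomplex and dimer organisers 3 were lower (42.9%, against 28.3% of all genes tested) and 0 higher: Higd1a, Chchd3 and Cox7a2l, itself a member. Of 8 tested regulators 3 were lower (37.5%) and 2 higher (25.0%), near the 28.3% and 27.9% of all genes tested. Yy1, Esrra and Nrf1 were lower, with Yy1 at -1.01 ± 0.16 (SE; limma, adjusted p = 0.00265), and Gabpb2 and Pprc1 were higher, with Gabpb2 at 1.10 ± 0.10 (SE; limma, adjusted p = 0.000441).

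**Figure D5:**
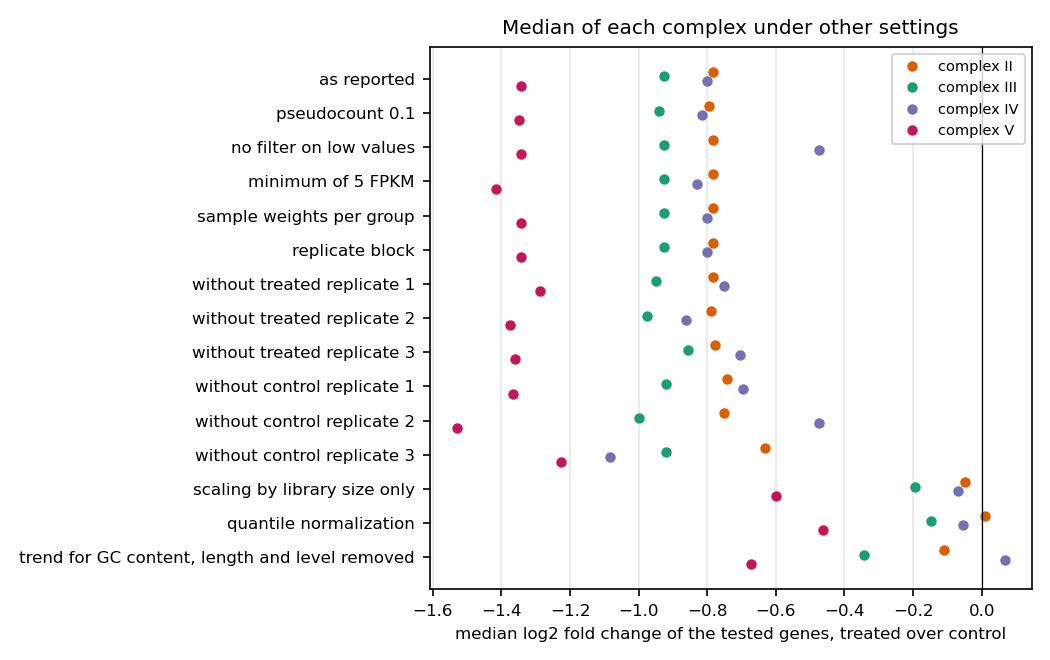
Median log2 fold change, treated over control, of the tested members of each complex as reported and under 14 alternative settings. Sample weights and the replicate block leave the medians unchanged by design. Complex V is the lowest in each, from -1.53 to -0.46, and complexes II, III and IV move close to 0 with scaling by library size only, quantile normalization or the trend removed, where complex II reaches 0.009 and complex IV 0.067.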

How the data were processed

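RNA-seq of 3 treated and 3 control samples of 4T1 cells was used, grouped by the labels. Per the labels' protocols, messenger RNA was selected on poly-T beads and sequenced as paired reads. The authors deposited 1 FPKM value per gene and sample, per the file headers. No aligner, counter, build, annotation or strand setting is named in the labels or headers, so these stand as not given in the sources used here. Identifiers were matched to GENCODE M21, and 52125 of 56748 had a symbol. Low values were whole multiples of 1 read: below 200 reads, 92.3% to 93.4% of values lay within 0.02 of a whole read, which gave the depths. No molecular identifiers are mentioned, so PCR copies are not independent, and depths and limits of 3 reads cover counting error only. The library size implied by the FPKM, divided by the recovered reads, was 1.32 to 1.33 in treated and 0.719 to 0.839 in control libraries.

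The test covered genes reaching 1 FPKM in 3 or more of the 6 libraries, on log2(FPKM + 1) with limma 3.58.1 (R 4.3.3), with a trended prior variance and group as the only term. Benjamini-Hochberg adjustment covered all 11118 genes, with calls at adjusted p under 0.05. The log2(FPKM + 1) scale understates changes of low genes. The procedure was tested on simulated data with independent noise of the same spread in both groups. The control libraries of these data spread more than the treated ones, so that test cannot vouch for the p-values here. No 2 libraries were identical. All samples carry 1 batch label. As separate cultures are not stated, p-values measure only how these samples spread, which may be technical.

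Values in every sample are given, in each complex, for the 2 members with the highest mean FPKM, the called member with the smallest p, the member with the largest p and isoform families. Of other lists, the called genes with the smallest p are named. Atp5e, Sdhc, Cox8a, Uqcr11, mt-Co1 and the other genes named were picked after their values were seen. The members and lists were chosen with earlier results of these data known. Alternatives changed the pseudocount, filter, scaling, weights, replicate block, a trend for GC content, length and level, and left out each library.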

Additional observations from a re-analysis of the deposited data

How the results depend on the processing

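Leaving the filter out, a minimum of 5 FPKM, a pseudocount of 0.1 and sample weights gave 25, 28, 28 and 29 members lower and 0 higher, against 29 and 0 as reported. The scalings and the trend correction moved the counts: scaling by library size only gave 16 lower and 2 higher, quantile normalization 14 and 1, and removal of a trend for level, exon length and GC content 9 and 2. Under these 3 in turn the median was -0.049, 0.009 and -0.11 for complex II, -0.193, -0.148 and -0.344 for complex III, -0.069, -0.053 and 0.067 for complex IV, and -0.599, -0.464 and -0.672 for complex V. Without each replicate in turn, 23 to 33 members were lower and 0 to 3 higher (3 without control 2: Uqcr11, Uqcrq and Atp5g2), and the medians ran from -0.789 to -0.633 for complex II, -1.0 to -0.856 for complex III, -1.083 to -0.473 for complex IV and -1.53 to -1.226 for complex V. These fits used genes reaching 1 FPKM in 2 or more libraries. Among members called as reported or under the alternative, those that changed sign were Atp5g1 (0.168), Atp5j (0.464, limma, adjusted p = 0.0231), Atp5s (0.174), Sdha (0.082) and Sdhb (0.047) with scaling by library size only, Sdha (0.177), Sdhd (0.093), Uqcr10 (0.128) and Uqcrc2 (0.042) under quantile normalization, and Cox6b1 (0.014), Sdhd (0.196) and Uqcr10 (0.532, limma, adjusted p = 0.0443) with the trend removed. Members called in neither also changed sign: 4 with scaling by library size only (Atp5k, Cox5a, Cox5b and Cox7b), the same 6 under quantile normalization and with the trend removed (Atp5j, Atp5k, Cox5b, Cox7b, Cox7c and Cox8a), and Atp5g2, Cox5b, Cox7a1 or Cox7a2 in 4 of the fits without 1 library. The cause was not tested. Deviations of samples with the same number correlated at -0.054, -0.111 and -0.14. Deviations were taken from the means of small groups, which ties these values together, so they cannot exclude pairing. With the replicate block 28 members were lower and 0 higher, and the medians were -0.784, -0.927, -0.801 and -1.342. Depth limits only Cox7a1 and the 7 members not tested.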
